A study of Arabidopsis thaliana with 37 samples.

Results

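Seedlings of the Ler wild type of Arabidopsis thaliana were compared between 9 and 21 days of age. The members are the 3 arrays whose background label reads Ler at 9 days and the 3 whose background label reads Ler (1) at 21 days. They are 6 of the 37 arrays in the series, and all 6 carry the strain code MR37. No mutant allele, transgene or treatment is labelled for either group, so age is the labelled difference between them. Ler is the usual short name of Landsberg erecta, an accession with a mutant ERECTA gene, which both groups share. The source of every sample is given as seedling, with no statement of whether roots were kept or how many plants were pooled. The series set wild types against mutants of the microRNA pathway (ago1-10, ago1-11 and dcl1-9), and its design text calls the samples biological replicates. For comparison, 4 further Ler arrays at 21 days, labelled Ler (2), and the Col wild type with 3 arrays at 9 days and 3 at 21 days were used.

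Between these ages an Arabidopsis seedling goes from its first true leaves to a rosette, its root system grows, and its seed reserves are long used up. Seedlings and roots of this family hold ER bodies, which are compartments of the endoplasmic reticulum filled with beta-glucosidases. When tissue is damaged, these enzymes meet their glucoside substrates, and jacalin-related lectins and GDSL lipase-like proteins gather with them in large complexes. Class III peroxidases and enzymes of pectin and xyloglucan act in the cell wall and alter how far it can stretch. Cold-regulated proteins and plastid lipid-associated fibrillins belong to the proteins that accumulate in stressed or maturing green tissue.

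Biotin-labelled cRNA made from total RNA was put on arrays of 8247 probe sets, with 1 sample per array. Values are array signals scaled to a common median, and a probe set was tested if it read above 11.96 (the signal's 40th percentile) on 3 or more arrays. That left 6049 probe sets, of which 2661 match 1 gene. A difference is given as log2 of 21 days minus log2 of 9 days after 1.14 was added to each signal, and a call is a Benjamini-Hochberg adjusted p under 0.05 from limma. A group mean under 11.96 is called near background, and a log2 difference from it varies in size with the added constant. The number of arrays limits the precision.

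The 6 arrays did not form 2 clean sets. The 9-day arrays correlated with each other at 0.94 to 0.957 (Pearson's r of log2 signals), and replicates 1 and 3 at 21 days at 0.955. Replicate 2 at 21 days correlated with them at 0.916 and 0.923, while replicate 1 at 9 days reached 0.917 to 0.929 with the 21-day arrays. Leaving out replicate 1 at 9 days raised the number of called probe sets from 404 to 592, and leaving out replicate 2 at 21 days gave 419. Leaving out any of the other 4 arrays lowered it, to 95 without replicate 2 and 155 without replicate 3 at 9 days, and to 150 without replicate 1 and 171 without replicate 3 at 21 days. As a check of the background labels, 55 probe sets were taken in which the Ler (2) and Col arrays lay over 2-fold apart. In 46 of them the 9-day Ler arrays and in 46 the 21-day Ler (1) arrays were nearer to Ler (2) than to Col. The median log2 difference over all probe sets tested was -0.05.

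**Figure D1:**
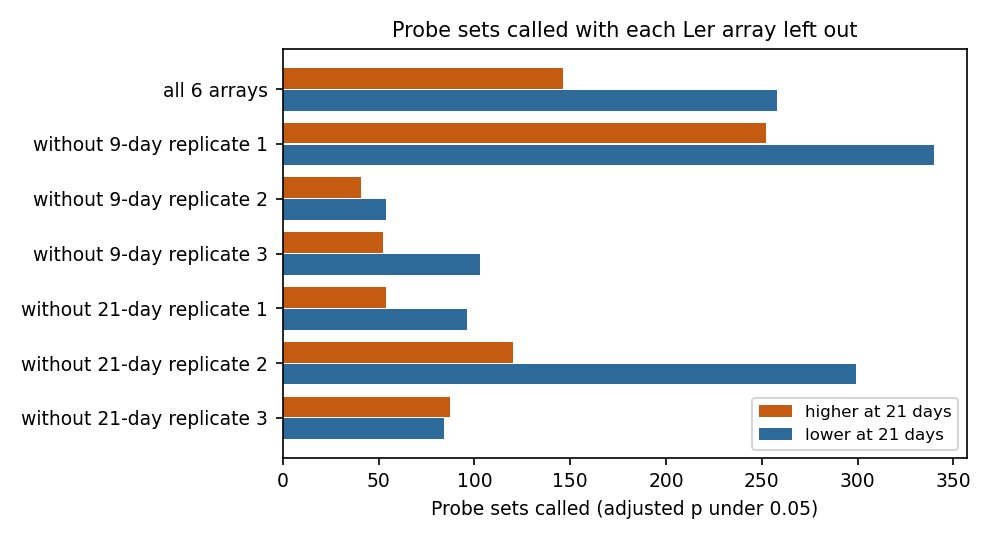
Number of probe sets called higher (orange) or lower (blue) at 21 days, with all 6 Ler arrays and with each array left out in turn. The counts with all 6 arrays are 146 higher and 258 lower, and without replicate 2 at 9 days they are 41 and 54.

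Of the probe sets tested, 404 were called, or 6.68%. At 21 days 146 were higher (2.41%) and 258 lower (4.27%), and 122 and 213 of these differed at least 2-fold. The median size of a called difference was 1.38 on the log2 scale, and the range ran from -5.14 to 6.48. In 355 of the called probe sets the 3 arrays of one age lay above all 3 of the other, against 1452 of all tested (24%). In 97 called probe sets at least 1 age was near background. The direction of the split depended on scaling. It was 185 higher and 196 lower after quantile normalization, with 334 of the 404 calls kept in the same direction. It was 265 higher and 154 lower after scaling to a trimmed mean, which shifted the median of all probe sets to 0.13 and kept 298 of the calls. Single genes are therefore described below with their array values, and the balance of higher against lower is not used. Among 1-gene probe sets 63 were higher and 99 lower. The genes described first are the 15 highest and 15 lowest of those whose ages did not overlap, by log2 difference with 16 added. Adding 16 keeps probe sets near background from leading the order.

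**Figure D2:**
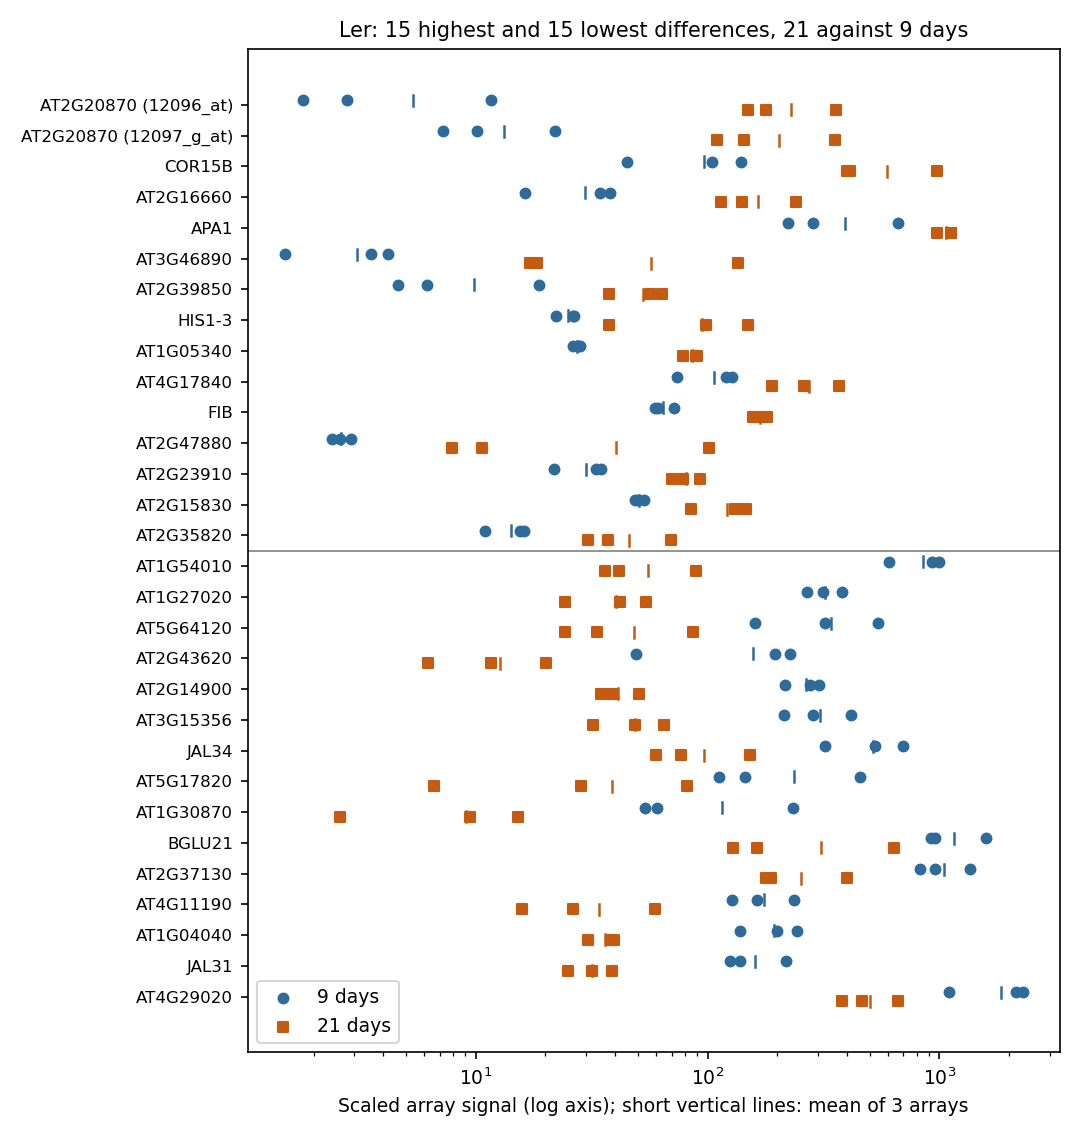
Scaled signal (log axis) of the 15 highest and 15 lowest probe sets by log2 difference with 16 added, each row a probe set with its 3 arrays at 9 days (circles) and 3 at 21 days (squares), and short lines at the means. In every row shown the ages do not overlap, as the rule for choosing them required, with AT1G54010 at 604 to 1000 at 9 days and 36 to 88.8 at 21 days.

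Genes of the ER body and its lectin complexes were among the clearest falls. AT1G54010, listed with the synonym GLL23, a GDSL lipase-like protein, had signals of 604, 1000 and 929 at 9 days and 41.5, 88.8 and 36 at 21 days. Every 21-day array was far below every 9-day array, where the rule for choosing the gene required no overlap. The difference was -3.98 ± 0.59 (SE, n = 3 and 3, adjusted p = 4.9e-05). The SE of a log2 difference comes from the model of all 37 arrays, not from the 6 Ler arrays alone. JAL34, a jacalin-related lectin gene, read 320, 700 and 529 at 9 days and 77.1, 152 and 60.2 at 21 days. It fell by 2.45 on the log2 scale (adjusted p = 5e-05). JAL31, a lectin gene of the same family, read 125, 218 and 138 and then 31.9, 38.6 and 25, a difference of -2.27 (adjusted p = 0.0021). For both lectin genes replicate 2 was the highest array at each age.

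The beta-glucosidase gene BGLU21, whose product is stored in ER bodies, was one of the brightest genes to fall. It read 919, 1590 and 961 at 9 days and 129, 637 and 163 at 21 days (-2.23 ± 0.69, adjusted p = 0.043). Replicate 2 at 21 days stood well above replicates 1 and 3, and the call was lost on leaving out any of 4 of the 6 arrays, with an adjusted p of up to 0.21 without replicate 2 at 9 days. It was also lost after quantile normalization (adjusted p = 0.088) and trimmed mean scaling (0.061), and at 0.056 to 0.059 without the filter, without the trend and with only the 6 Ler arrays in the model. BGLU15, another beta-glucosidase gene, fell from 91.2 ± 12.1 to 15 ± 3.69 (SD, n = 3 each, -2.54, adjusted p = 0.0031) and kept its call in all 6 omissions. NAI1 encodes the transcription factor needed for ER body formation. Its signals were 25.3, 29.6 and 36 at 9 days and 14.5, 13.7 and 13.9 at 21 days, without overlap, but its difference of -1.04 did not pass (adjusted p = 0.057). The list of ER body, beta-glucosidase and glucosinolate genes had 16 measured of 19, of which 0 rose, 5 fell and 11 did not pass, where 4.27% of all probe sets were called lower. After quantile normalization 4 fell, BGLU21 being lost. Its median was -0.37, against -0.05 over all probe sets. The 5 that fell are the 4 ER body or lectin genes and BGLU15. The summed signal of the list was 2875 to 4406 at 9 days and 964 to 1580 at 21 days.

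**Figure D3:**
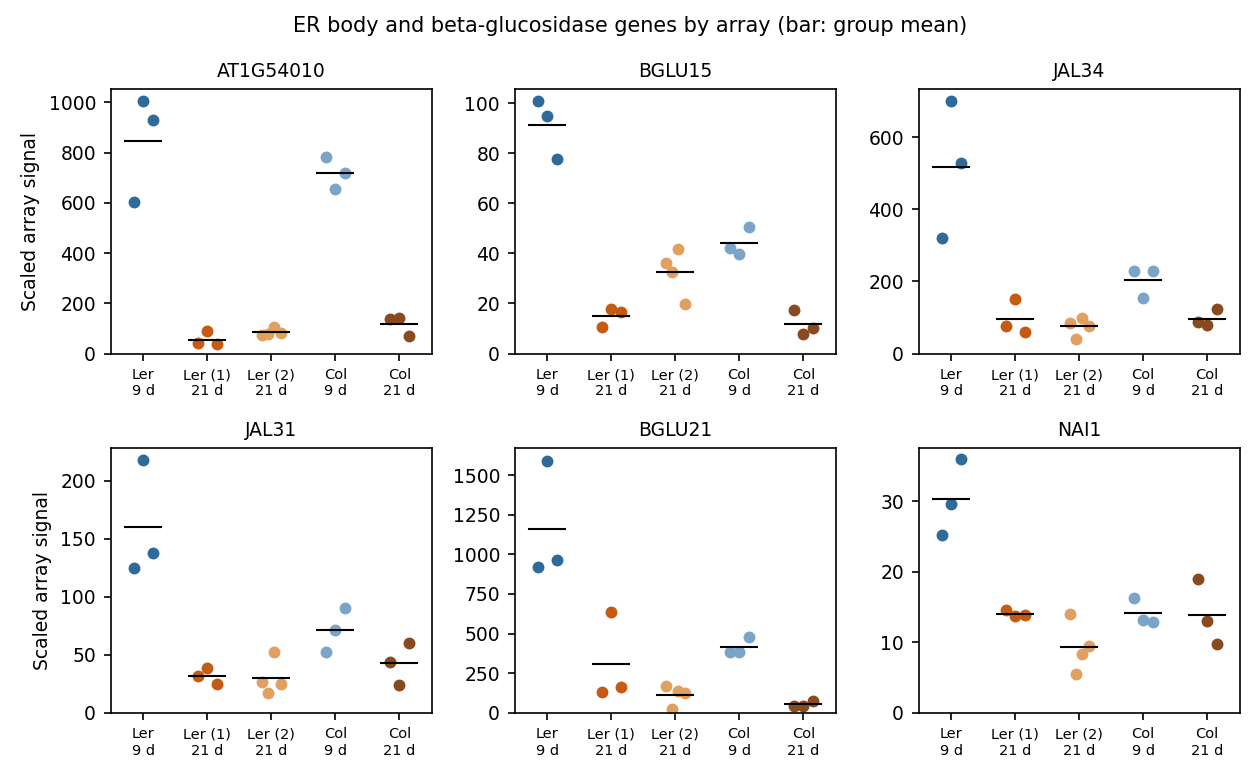
Scaled signal per array of 6 ER body and beta-glucosidase genes in the Ler and Col wild types at 9 and 21 days, with bars at the group means. In AT1G54010, BGLU15 and BGLU21 both wild types are lower at 21 days, while NAI1 in Col has a mean of 14.1 at 9 days and 13.9 at 21 days.

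The root-enriched list holds BGLU21, NAI1, XTH26, LPR1, UPB1 and LHW, all 6 measured, and shares BGLU21 and NAI1 with the ER body list. BGLU21 and XTH26 fell and the other 4 did not pass, where 4.27% of all probe sets were called lower and 2.41% higher. In this list 3 of the 6 differences were above 0, with LPR1 at 0.86 and UPB1 at 1.01. The list's summed signal, most of it BGLU21, was 987 to 1699 at 9 days and 212 to 705 at 21 days. In 21-day Ler (2) it was 114 to 298, and in Col it was 454 to 552 at 9 days and 146 to 162 at 21 days. XTH26, a xyloglucan-modifying enzyme gene of root hairs, was dim, at 11.8, 40.4 and 15.6 and then 4.57, 1.69 and 5.41. Its call was lost on 5 of the 6 omissions, with an adjusted p of up to 0.24 without replicate 2 at 9 days. In RNA of whole seedlings, fewer cells of a type and less RNA per cell cannot be told apart, and the part of root tissue in the fall of the ER body genes was not tested.

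Cell wall enzyme genes gave 3 falls and 0 rises among 15 measured of 25 listed, with a median of -0.85, where all probe sets gave 4.27% lower, 2.41% higher and a median of -0.05. ATPMEPCRD, a pectin methylesterase gene, had the smallest adjusted p of the falling 1-gene probe sets whose ages did not overlap. It read 94.2, 130 and 73.4 at 9 days and 19.1, 26.3 and 30.3 at 21 days (-1.91 ± 0.27, adjusted p = 3e-05). The fall kept its call in all 6 omissions. XTH33, a gene of the same family as XTH26, fell from 10.9 ± 2.58 to 1.92 ± 0.367 (-1.95, adjusted p = 0.018). Both means were near background, and the call held in 4 of the 6 omissions, with an adjusted p of up to 0.1. With only the 6 Ler arrays in the model the adjusted p of XTH33 was 0.063. Of the 15 measured genes 8 were near background in at least 1 age. XEG113, outside the list, fell by 0.96 (adjusted p = 0.036), with 69.9 to 90.6 at 9 days and 35.7 to 44.8 at 21 days. Its call was lost on 5 of the 6 omissions, with an adjusted p of up to 0.18 without replicate 2 at 9 days. The expansin list, genes whose products loosen the wall, had 7 measured and 0 called, with 6 of 7 differences below 0.

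Class III peroxidases use hydrogen peroxide in the wall, and 4 genes that carry a peroxidase name in the gene tables used were measured. Loci without such a name there were not counted, so this list may lack peroxidase genes, some of them possibly among the unnamed loci below. AT5G64120, listed as PRX71, read 161, 541 and 320 at 9 days and 33.5, 86.7 and 24.2 at 21 days. It fell (-2.84 ± 0.83, adjusted p = 0.035), and replicate 2 was the highest array at both ages. The call was lost on 4 of the 6 omissions, with an adjusted p of up to 0.2 without replicate 2 at 9 days. The other 3 did not pass, with AT5G66390 at -1.6 (adjusted p = 0.1), PRXR1 at -0.43 and AT2G41480, near background, at -0.39. Of all probe sets tested 4.27% were called lower.

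Several of the strongest falls are known here by their locus alone, since the gene tables used give them no name. AT1G27020 read 379, 268 and 315 at 9 days and 42.1, 24.4 and 54.4 at 21 days (-3.01, adjusted p = 0.00014). AT4G29020 was the brightest of the 15, at 1100, 2130 and 2290 and then 462, 660 and 382 (-1.84, adjusted p = 0.00074). AT2G37130 read 826, 1360 and 959 and then 187, 399 and 178 (-2.11, adjusted p = 0.00039). In these 3 genes every 9-day array was above every 21-day array, as the rule for choosing the 15 required. AT2G14900 fell from 266 ± 45.3 to 41.3 ± 8.18, AT3G15356 from 305 ± 103 to 48.7 ± 16.4, and AT1G04040 from 193 ± 52.6 to 36.2 ± 5.0. All 6 of these loci kept their calls in every omission.

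The other 4 loci without a name had wide spreads. AT2G43620 read 49, 227 and 195 and then 11.6, 20.2 and 6.25 (-3.38 ± 1.06, adjusted p = 0.048). Its call was lost with 16 added, the constant that ranked it (adjusted p = 0.057), and at 0.052 to 0.066 with centred medians, a trimmed mean, no filter and no trend. AT5G17820 read 112, 456 and 145 and then 6.64, 81.8 and 28.4 (-2.87, adjusted p = 0.021). AT1G30870 fell from 116 ± 102 to 9.12 ± 6.36, near background, and AT4G11190 from 175 ± 54.4 to 33.9 ± 22.9. In all 4 loci replicate 2 was the highest array at each age, as in BGLU21 and PRX71. Without replicate 2 at 9 days the adjusted p of these 4 loci was 0.22, 0.18, 0.12 and 0.12. Of the 15 falls, 9 kept their calls in all 6 omissions, beside 42 of all 258 probe sets called lower. The 15 were chosen for size and for ages that do not overlap, so this count is a description.

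Of the 15 rises by size 4 carry a name, and of the 15 falls 3. COR15B, a cold-regulated chloroplast protein gene, read 44.9, 105 and 139 at 9 days and 401, 976 and 412 at 21 days. The ages did not overlap, as the rule for choosing the 15 required, and the rise was 2.63 ± 0.38 (adjusted p = 3e-05). It stood apart from its list of cold, drought and dehydrin genes, all 11 of which were measured. DI21, a drought-induced gene, fell (-1.5, adjusted p = 0.045), but its call was lost in each of the 6 omissions, with an adjusted p of up to 0.14. The other 9 did not pass, with KIN2 at 0.44 and COR47 at -0.52. The list's median was -0.12, and of all probe sets tested 6.68% were called.

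FIB, a fibrillin of plastid lipid bodies, read 71.7, 59.5 and 61.1 at 9 days and 169, 180 and 157 at 21 days (1.39 ± 0.25, adjusted p = 0.00061). APA1, a vacuolar aspartic proteinase gene, read 661, 286 and 223 and then 978, 1120 and 1120 (1.62 ± 0.30, adjusted p = 0.00082). Its 21-day arrays were alike and its 9-day arrays were spread. HIS1-3, the stress-inducible linker histone gene, read 26.6, 22.3 and 26.2 and then 150, 37.5 and 98.2 (1.68, adjusted p = 0.035). Here the 9-day arrays were alike, and the call was lost on 4 of the 6 omissions, with an adjusted p of 0.19 without replicate 1 at 21 days.

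The largest rise among 1-gene probe sets was in AT2G20870, which has no name in the tables used. One of its probe sets read 1.8, 2.78 and 11.6 at 9 days and 179, 358 and 150 at 21 days (5.34 ± 0.63, adjusted p = 1.4e-06, or 3.45 with 16 added). The other read 10.1, 22.1 and 7.23 and then 110, 354 and 144 (3.78, adjusted p = 0.00012). Both kept their calls in every omission. AT2G16660 read 16.3, 34.5 and 38.1 and then 114, 241 and 141 (2.45, adjusted p = 0.00084). Replicate 2 was the highest 21-day array of both genes.

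The remaining rises by size were AT3G46890 (3.17), AT2G47880 (2.56), AT2G39850 (2.48), AT1G05340 (1.61), AT2G35820 (1.54), AT2G23910 (1.42), AT4G17840 (1.33) and AT2G15830 (1.2). AT1G05340 was even within each age, at 26.4, 27.7 and 28.1 and then 89.1, 78.6 and 89.8. Its call (adjusted p = 0.021) held in 2 of the 6 omissions, with an adjusted p of up to 0.087. Those of AT2G23910 and AT2G15830 held in 1 and 2 of the 6. AT3G46890 and AT2G47880 rested more on 1 array, since their highest 21-day value, in replicate 2, was 136 and 102 while the others were 18.4 and 17.1, and 10.7 and 7.94. Without that array the adjusted p was 0.028 and 0.3. The 9-day means of AT2G20870 (1 of 2 probe sets), AT3G46890, AT2G39850 and AT2G47880 were near background. Of the 15 rises, 7 kept their calls in all 6 omissions, beside 27 of all 146 probe sets called higher. These 15 were chosen in the same way as the falls, so this count too is a description. Of the 15, 7 were lost without replicate 1 at 21 days and 7 without replicate 3 at 9 days.

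Genes of photosynthesis gave 0 calls with the Ler (1) arrays. The photosystem and antenna list had 13 of 13 measured, with means from 30.1 (PAM68 at 21 days) to 6200 (PSAE-1 at 9 days), differences from -0.66 to 0.53 and a median of -0.08. LHB1B2, a light-harvesting chlorophyll protein gene, had means of 4190 and 2680 (-0.63, adjusted p = 0.15), and LHCB4.1 had 5950 and 4830. The summed signal of the list was 29423 to 38890 at 9 days and 28236 to 29849 at 21 days. In 21-day Ler (2) it was lower, at 20726 to 24549. With Ler (2) the list's median was -0.4, and 2 of the 13 were called lower and 0 higher. These were PSAE-1 (-1.0, adjusted p = 0.011) and LHB1B2 (-0.76, adjusted p = 0.033). Of all probe sets 15.6% were called with Ler (2). The carbon fixation list also had 0 called of 10, with the Rubisco activase gene RCA at 5130 and 4140 (-0.31, adjusted p = 0.36). With Ler (2) 1 of these 10 was called higher and 1 lower, RCA being at -0.74 (adjusted p = 0.0045). The Ler (1) medians of these 2 lists were above 0 under other scalings. They were 0.11 and 0.12 with a trimmed mean and 0.12 and 0.1 with quantile normalization. The list of flower, anther and pollen genes had 4 of 13 measured, 0 called and a summed signal of 150 to 166 at 9 days and 150 to 178 at 21 days.

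Cell division genes, which mark growing tissue, gave 0 calls among 12 measured, with differences from -1.31 to 1.84. TOPII, a DNA topoisomerase gene, was at 1.84 (adjusted p = 0.051) from a 9-day mean of 6.39, near background, with overlapping arrays. The senescence list gave 0 calls of 4, and YLS5 was at -1.16 (adjusted p = 0.094). The chitinase and pathogenesis-related list, taken by gene symbol and so without loci that have none, gave 0 of 5 and the defensin and thionin list 0 of 6. THI2.2, a thionin gene, was the lowest of the latter at -1.9 (adjusted p = 0.074), with means of 72.9 and 19. Over all 31 lists 226 genes were measured of 295 listed. Of these 6 rose and 15 fell, or 9.29% called, beside 6.68% of all probe sets tested, and 17 lists had 0 calls.

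**Figure D4:**
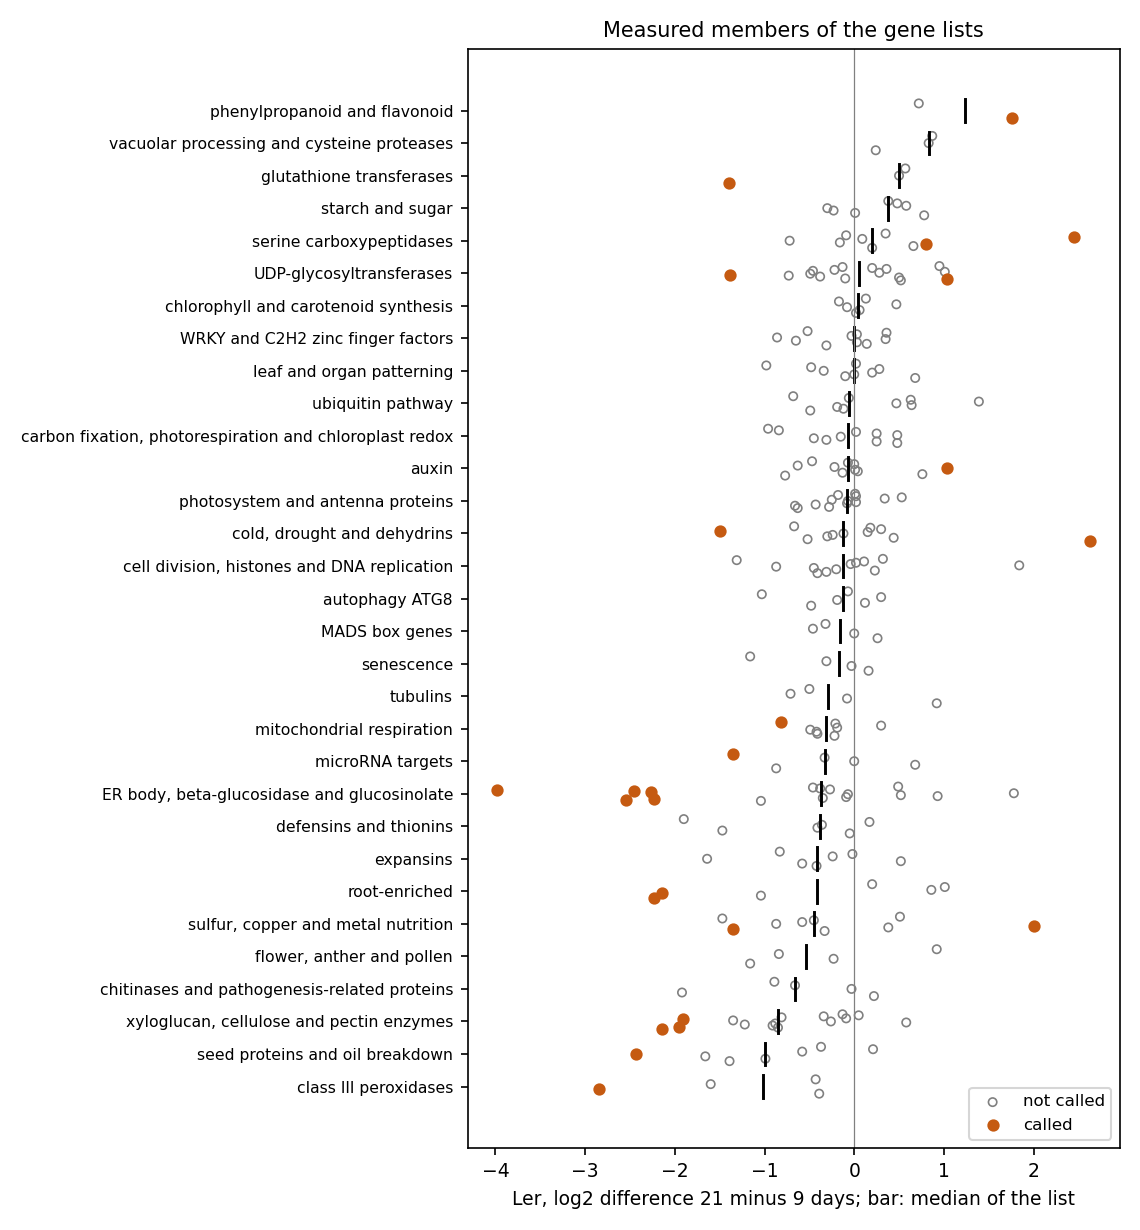
Log2 difference of 21 minus 9 days for each measured member of 31 gene lists, with called members filled and bars at the list medians. The called members at the left are led by the ER body list (lowest -3.98), while the photosystem list spans -0.66 to 0.53 with 0 called.

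Sulfur assimilation enzymes gave a call in each direction among 9 measured genes of the sulfur, copper and metal list. Of all probe sets tested 2.41% were called higher and 4.27% lower. APS4, an ATP sulfurylase gene that is also a target of the microRNA miR395, read 223, 392 and 265 at 9 days and 95, 142 and 101 at 21 days. It fell by 1.35 on the log2 scale (adjusted p = 0.0025) and kept its call in all 6 omissions. APS3, its close relative, was at -0.33 (adjusted p = 0.46). OASA2, named for O-acetylserine (thiol) lyase, the last enzyme of cysteine synthesis, rose from 3.76 ± 2.92, near background, to 17.6 ± 9.49 (2.0, adjusted p = 0.013), and lost its call on 3 of the 6 omissions, with an adjusted p of up to 0.16. The other measured microRNA targets, ARPN, PHV, LCR and APS3, did not pass, so 1 of 5 was called, beside 6.68% of all probe sets.

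Serine carboxypeptidase genes gave 2 rises among 9 measured, where 2.41% of all probe sets were called higher. SCPL49 read 185, 143 and 157 at 9 days and 229, 326 and 298 at 21 days (0.8, adjusted p = 0.0095). scpl31 rose from 2.45 ± 1.90, near background, to 18.6 ± 9.80 (2.45, adjusted p = 0.0087). Each lost its call on 1 omission, that of replicate 2 at 9 days, with an adjusted p of 0.082 and 0.081. Among glycosyltransferase genes, 16 were measured of 21 listed, and 1 rose, 1 fell and 14 did not pass, with a median of 0.05. Of all probe sets 2.41% were called higher and 4.27% lower. UGT72E1, which acts on phenylpropanoids, fell from 319 ± 151 to 125 ± 67.1 (-1.38, adjusted p = 0.021). IAGLU, which conjugates auxin to glucose, rose from 68 ± 11 to 150 ± 67 (1.03, adjusted p = 0.027). IAGLU arrays overlapped between ages, at 59.7 to 80.5 and 80 to 213. The calls were lost on 3 and 4 of the 6 omissions, with an adjusted p of up to 0.2 and 0.18.

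The same ages were compared in Col, whose 6 arrays share no sample with the Ler comparison. In Col 188 probe sets were called (3.11%), 110 higher and 78 lower. Of the 404 Ler calls, 330 had the same sign in Col and 74 the opposite one. The share with the same sign over all probe sets tested was not counted, so these counts are a description. Called in both in the same direction were 46 probe sets, 20 higher and 26 lower, or 11.4% of the Ler calls and 24.5% of the Col calls, and 0 were called in opposite directions. Of the 15 falls named by size all had the same sign in Col and 4 were also called there. Of the 15 rises 14 had the same sign and 4 were called. The median difference of the 15 falls was -2.62 in Ler and -1.57 in Col, and that of the 15 rises 1.68 and 0.96, which is a description of genes chosen for their size in Ler.

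Genes that changed in both wild types came from several of the groups above. AT1G54010 fell in Col from a mean of 719 to 116 (-2.68, adjusted p = 0.0083). BGLU21 fell from 417 to 53.1 (-2.98, adjusted p = 0.011), and BGLU15 from 44.1 to 11.9 (adjusted p = 0.044). The fall of APS4 was from 183 to 90.1 (adjusted p = 0.021). COR15B rose from 105 to 371 (1.78, adjusted p = 0.0062) and FIB from 128 to 276 (1.11, adjusted p = 0.0099). HIS1-3 rose more steeply in Col, from 22.7 to 166 (2.82, adjusted p = 0.0015), but the difference between the wild types did not pass (adjusted p = 0.56). The lectin genes JAL34 and JAL31 were at -1.09 and -0.79 in Col (adjusted p = 0.097 and 0.39), and their differences from Ler did not pass (adjusted p = 0.35 and 0.43). APA1 had means of 788 and 800 in Col, a difference of -0.04, against 1.62 in Ler, and this gap did not pass either (adjusted p = 0.11).

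**Figure D5:**
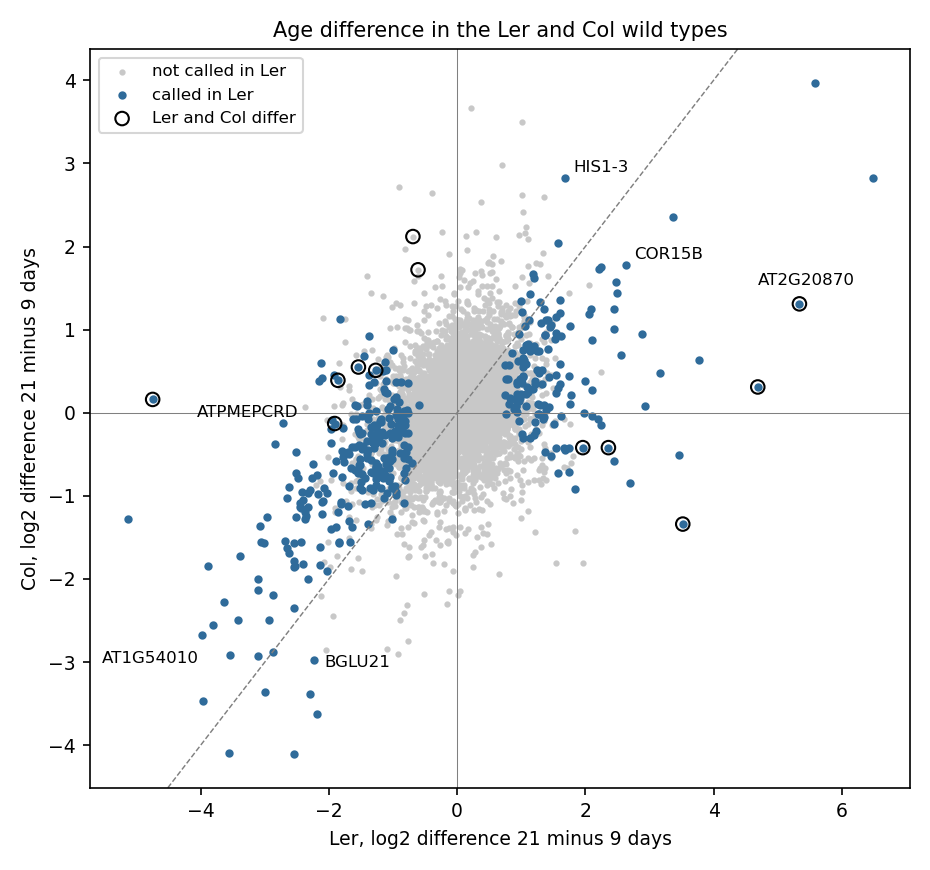
Log2 difference of 21 minus 9 days in Ler (horizontal) and Col (vertical) for 6049 probe sets, with the 404 called in Ler in blue, the 12 whose age effect differs between Ler and Col circled, and a dashed line at equality. COR15B lies at 2.63 and 1.78, BGLU21 at -2.23 and -2.98, and AT2G20870 at 5.34 and 1.31.

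Tested directly as a difference of differences, the age effect differed between Ler and Col in 12 probe sets (0.198%), and 630 had an unadjusted p under 0.05. Named genes account for 4 of the 12. ATPMEPCRD fell in Ler and had means of 25 and 23.1 in Col (Ler minus Col -1.78, adjusted p = 0.032). The 9-day Ler arrays, at 73.4 to 130, were the high ones, since Col at 9 days was at 23.2 to 27.1 and Ler at 21 days at 19.1 to 30.3. Both probe sets of AT2G35380 showed the same layout. The brighter one read 65.8, 88.5 and 93.5 in Ler at 9 days, 21.4, 27.8 and 16.9 at 21 days, and had means of 20.2 and 26.8 in Col (Ler minus Col -2.25, adjusted p = 0.021). AT2G20870 rose more in Ler than in Col (4.03, adjusted p = 0.036 for one probe set, and 3.14, adjusted p = 0.14 for the other). The count of 12 fell to 1 without replicate 2 at 9 days in Ler and rose to 61 without replicate 1. Across the mutants, the age effect of Ler differed from that of ago1-10 in 294 probe sets (4.86%) and from that of ago1-11 in 103 (1.7%).

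The second Ler set at 21 days was set against the same 9-day arrays, so both Ler comparisons share those samples and their values are given side by side. Of the 15 falls by size, 15 were below 0 with Ler (2) and 12 were called, where 15.6% of all probe sets were called with Ler (2). Of the 15 rises, 14 were above 0 and 12 were called. The genes were chosen for their size against those same 9-day arrays, so these counts are a description. JAL34 was at -2.45 with Ler (1) and -2.77 with Ler (2), APA1 at 1.62 and 1.75, and ATPMEPCRD at -1.91 and -2.28. AT2G47880, at 2.56 with Ler (1), was at -0.21 with Ler (2), where its arrays ranged from 0.8 to 7.29.

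Between the Ler (1) and Ler (2) arrays themselves, all at 21 days, 112 probe sets were called (1.85%). AT2G20870 was among them, with 150 to 358 in Ler (1) and 10.7 to 37.9 in Ler (2) (3.17, adjusted p = 0.0027), and the highest Col array at 21 days read 67.6. AT1G27020 was lower in Ler (1), at 24.4 to 54.4 against 132 to 227 (-2.14, adjusted p = 0.007), and with Ler (2) its age difference was -0.88 (adjusted p = 0.2). COR15B was at 401 to 976 in Ler (1) and 176 to 348 in Ler (2), a difference of 1.03 that did not pass (adjusted p = 0.14). For APA1, JAL34, AT1G04040 and AT4G29020 the sets differed by -0.13 to 0.32, and these differences did not pass.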

How the data were processed

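The deposited values are linear intensities, 1 per probe set and array, from MAS5 according to the authors' processing notes at submission. Which MAS5 version and target signal were used is not stated in the labels. Readings of at least 1000 are written with a point between digit groups, so the 7913 cells with exactly 3 decimals (no other reading exceeds 999.9) were multiplied by 1000. Each of 37 columns is 1 sample, and 0 columns belong to none. Arrays were scaled to a common median, since their log2 medians spanned 1.42.

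One limma model (3.58.1, R 4.3.3; lmFit, contrasts.fit, eBayes with trend) with a mean per group was fitted to all 37 arrays, and p-values were adjusted over the 6049 probe sets tested. The script was tested on simulated data. Tables and figures used Python 3.11.15, pandas 2.3.3, numpy 2.4.6 and matplotlib 3.10.9. In the platform annotation 3794 probe sets have 1 gene and 70 several, while 4383 are unnamed here. Of the first, 3792 matched the RefSeq gene table.

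Named genes are the 15 highest and 15 lowest called 1-gene probe sets by log2 difference with 16 added whose ages do not overlap, the 5 smallest adjusted p in each direction, up to 5 members per list with the smallest adjusted p, and up to 5 per direction for Ler against Col. A list gene is represented by its brightest probe set. The 31 lists were drawn up by symbol pattern and then trimmed by hand to the annotated symbols. The members and lists were chosen with earlier results of these data known. XEG113, and the genes with a symbol outside the lists given under the other observations, were named after their values were seen.

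Replicates are numbered in accession order, and no label pairs arrays of equal number across ages. The deviations of such arrays from their group means correlated at 0.226, 0.317 and 0.04 for replicates 1, 2 and 3. A pairing by number was not tested. The last letters of the sample titles are shared by 2 pairs of arrays, whose deviations from their group means correlated at -0.254 and -0.03, so they were not treated as pairs. The p-values and SE rest on the spread between arrays within groups, pooled over all 37 arrays of the model, and not on the 6 Ler arrays alone. Alternatives were other scalings, other constants added, no filter, fewer arrays in the model, no trend, a replicate block, the Ler (2) arrays, plain probe sets and each array left out.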

Additional observations from a re-analysis of the deposited data

Results flagged for a closer look

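The age effect in Ler minus that in Col passed a direct test in 12 probe sets. Those with 1 named gene were AT2G20870 (4.03), ATPMEPCRD (-1.78) and the pair of AT2G35380 (-2.25 and -2.08). The other 8 have no single named gene. Of these 14032_at (4.86), 12574_at (4.37), 20297_at (2.78) and 19315_at (2.38) rose in Ler. In 14032_at and 20297_at the 9-day Ler arrays, at 1.01 to 12.2 and 11.9 to 23.7, lay below all Col arrays and all 21-day Ler arrays. In 12574_at the 9-day Ler mean was 0.743, the Ler (1) mean at 21 days 45.2, and the Ler (2) mean 367, while Col had 34.4 and 43.5. The probe set 14635_s_at (-4.91) fell in Ler (1), from 112, 325 and 209 to 5.47, 4.43 and 9.47, whereas Ler (2) at the same 21 days ranged from 85.8 to 427 and the Col means were 2.3 and 2.66. The probe set 13034_s_at (-1.78) fell in Ler from a mean of 37.8 to 16.1, and its Ler (2) mean was 29.5. In 16322_at (-2.81) and 15436_i_at (-2.33) the Ler difference itself did not pass, and the rise in Col did (adjusted p = 0.0025 and 0.0051).

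The age effect also differed between Ler and ago1-10 in 294 probe sets and between Ler and ago1-11 in 103.

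Among 33 probe sets named by rule, 1 of the 4 Ler (2) arrays lay apart below the other 3 in 4 cases, by its gap against the range of all 4, and chance gives such a mark in about 1 of 20 groups. The low readings were 98.8 for AT2G16660 (others 234 to 274), 25.1 for BGLU21 (others 125 to 167), 24.6 for AT1G04040 (others 36.4 to 37.5) and 5.47 for AT1G30870 (others 7.69 to 8.1).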

How the results depend on the processing

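The 404 calls (146 higher, 258 lower) became 122 (36 and 86) with only the 6 Ler arrays in the model, 264 (96 and 168) with plain probe sets only, and 944 (420 and 524) with Ler (2) in place of Ler (1). Trimmed mean scaling gave 265 higher and 154 lower. With a replicate block by title letter, fitted to only the 6 Ler arrays, 6 were called (3 and 3), all 6 among the 404 in the same direction. The count without the block is the 122 of the 6-array model, and the block adds terms to that small fit. With the block the age difference rests on the 2 pairs of arrays that share a letter, so these counts are not alike. The deviations of those pairs do not go together. Leaving out single arrays gave 95 to 592 calls, 41 to 252 higher and 54 to 340 lower, and 69 probe sets were called in all 6 omissions. Quantile normalization, centred log2 medians, constants of 1 and 16, no filter and no trend kept the count of all calls between 334 and 435. The 12 probe sets that differed between Ler and Col became 30 with 16 added, 6 without the filter, 7 with 12 arrays in the model, and 1 to 61 with single arrays left out. Of 252 named or listed probe sets 5 changed sign with Ler (2) and passed in 1 of the comparisons, AT2G47880 (-0.21), which alone of these was called with Ler (1), and DI19, ACLA-2, OSM34 and KIN2, which were called with Ler (2). Of 64 called probe sets the text draws on, 36 lost their call with only the 6 Ler arrays in the model (adjusted p = 0.05 to 0.23), 11 under trimmed mean scaling (0.052 to 0.15), 7 under quantile normalization and 1 to 9 with centred medians, a constant of 1 or 16, no filter, no trend or plain probe sets. The cause of these shifts was not tested, beyond the smaller number of samples or probe sets that some settings use. Signal near background limits 97 of the 404 calls.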

Other observations

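Further called genes carry a symbol in the gene table, and those outside the lists were named after their values were seen. Among the falls, CRT1b, a calreticulin gene of the endoplasmic reticulum, read 197, 193 and 189 at 9 days and 99.5, 86.8 and 86.7 at 21 days (-1.08, adjusted p = 0.0074), and kept its call in all 6 omissions. With only the 6 Ler arrays in the model the adjusted p of CRT1b was 0.051. ARAB-1 fell from 55.1 ± 10.9 to 10.5 ± 1.02, near background (-2.25, adjusted p = 0.0011, or -1.41 with 16 added). It also kept its call in all 6 omissions. MAB1, a mitochondrial pyruvate dehydrogenase subunit gene, fell from 442 ± 102 to 182 ± 80.5 (-1.36, adjusted p = 0.0095), and MSRB9, a methionine sulfoxide reductase gene, from 52.3 ± 4.82 to 19.4 ± 10.3 (-1.51, adjusted p = 0.012). GSTF3 fell from 648 ± 277 to 235 ± 52.3 (-1.4, adjusted p = 0.041). It was the 1 called of 3 glutathione transferase genes measured, where 6.68% of all probe sets were called. The late embryogenesis abundant gene AT2G46140 fell from 58.5 ± 47.1 to 14.7 ± 18.4 (-2.43, adjusted p = 0.009), with overlapping arrays. Smaller falls were seen in ENOC (-1.0), FLDH (-0.96), CML42 (-0.83), ACLA-3 (-0.82), SPP (-0.71) and, near background, TRI (-1.64) and GEK1 (-1.13). The calls of MAB1, MSRB9, GSTF3, AT2G46140 and of these smaller falls were each lost on at least 2 omissions.

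Among the rises, ATU2AF35A, a splicing factor subunit gene, read 29.1, 13.9 and 10.3 at 9 days and 40.4, 51 and 38.7 at 21 days (1.35, adjusted p = 0.0014). CCOAMT rose from 2.18 ± 0.151, near background, to 10.8 ± 5.02 (1.76, adjusted p = 0.0041). Both kept their calls in all 6 omissions. With only the 6 Ler arrays in the model both calls were lost (adjusted p = 0.084 and 0.091). The call of CCOAMT was also lost with 16 added, where its difference was 0.54 (adjusted p = 0.056). SAMDC, an S-adenosylmethionine decarboxylase gene of polyamine synthesis, read 616, 255 and 89 and then 925, 881 and 561 (1.67, adjusted p = 0.034), so its ages overlapped. FATB (1.26), EX1 (1.18), SAY1 (0.77) and, near background, IQD16 (1.84) also rose. The calls of SAMDC, FATB, EX1, SAY1 and IQD16 were each lost on at least 4 omissions, with an adjusted p of up to 0.32 for SAMDC without replicate 3 at 9 days.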
